A study of Caenorhabditis elegans with 53 samples.

Results

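Small RNAs held by the Argonaute RDE-1 were compared with those of the lysate it was precipitated from, in the nematode Caenorhabditis elegans under RNA interference (RNAi) against nrfl-1. The comparison rests on 6 of the 53 samples of the series, all those labelled GFP::rde-1 with nrfl-1 RNAi: 3 co-immunoprecipitates (co-IPs) and 3 inputs. All 6 carry the allele rde-1(cmp133[(gfp::3xFLAG)::rde-1]), in which the rde-1 gene itself bears the tag, and all 6 were on nrfl-1 RNAi, so the inputs share both the tag and the treatment. They came from whole gravid hermaphrodites grown for 72 to 75 hours at 20 °C from synchronized larvae, and RNAs of 16 to 30 nt were sequenced. No co-IP from a strain without the tag was analysed here. Every one of the 25896 rows of their table, in 11 small RNA classes, was used. The values are RPM, read counts that the authors scaled to library size. In each library 1 read was worth between 0.0385 and 0.0561 RPM, judged from the steps between low values, and the listed rows summed to 684014 to 778384 RPM. On the log2 scale the 3 co-IPs correlated with each other at 0.941 to 0.974 over 3197 rows, the 3 inputs at 0.964 to 0.988, and co-IPs with inputs at 0.526 to 0.589. Nothing in the labels says that samples of a group came from separate cultures, so p-values measure only the spread between these samples.

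Argonaute proteins hold small RNAs and use them as guides to matching transcripts. In C. elegans, Dicer cuts double-stranded RNA into short duplexes with 2-nt 3′ overhangs, and RDE-1 takes up the resulting siRNAs and starts RNAi, while ALG-1 and ALG-2 hold most microRNAs. RNA-dependent RNA polymerases then copy target transcripts into 22G-RNAs, which other Argonautes such as CSR-1 and the WAGO proteins hold. The 26G-RNAs are held by ERGO-1 or by ALG-3 and ALG-4, and piRNAs by the Piwi protein PRG-1. The 23H-RNAs are the class of Dicer-dependent siRNAs from the worm's own genes that the series describes. Their rows are single sequences of 21 to 24 nt on a list made by the authors, and whether these libraries helped to choose that list is not given in the sources used here.

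Abundant 23H-RNA sequences of the co-IP and, for 2 of them, the partner strands are shown first, as the deposited table lists them, 5′ to 3′. The abundant 23-mers of F43E2.6, a gene on chromosome II, and of mir-5592, a microRNA hairpin on chromosome X, each have a listed partner with which they pair perfectly apart from the last 2 bases of either strand, which are in capitals.
F43E2.6, more abundant strand: tttgccgatgtttctgagatgTC
F43E2.6, partner: catctcagaaacatcggcaaaTG
mir-5592, more abundant strand: tgtattaaacggtaagggccgGC
mir-5592, partner: cggcccttaccgtttaatacaTG
The hairpin of Y57G11C.1145, on chromosome IV, gave a 23-mer and a 22-mer from the same start. Their shared first base is in capitals.
Y57G11C.1145 hairpin, 23-mer: Agtggagtggatgacgacgacga
Y57G11C.1145 hairpin, 22-mer: Agtggagtggatgacgacgacg
Chromosomes are those of the RefSeq annotation of WBcel235, used only for names since no genome build is given for the table.

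Against their inputs, the RDE-1 co-IPs were high in siRNAs against nrfl-1, in 23H-RNAs and in a small set of microRNAs. On the RPM as deposited they were low in most 22G-RNAs and piRNAs tested. With each library centred on its median, 208 of 838 CSR class 22G-RNA rows were lower and 6 higher. Of 1471 piRNAs 501 were then lower and 219 higher, and of 95 WAGO class rows 5 were lower and 13 higher. In the co-IPs 8.43%, 14.97% and 12.4% of all listed RPM belonged to 23H-RNAs, and in the inputs between 0.0631% and 0.0916%. Their mean share was 11.9% ± 3.29 against 0.0810% ± 0.0156 (SD, n = 3 each), a ratio of 147. The siRNAs against nrfl-1 held 4.49% ± 0.191 against 0.0820% ± 0.00475. MicroRNAs were still the largest class in the co-IPs, at 82.8% ± 3.58, and held 96.6% ± 0.746 of the inputs. The groups did not overlap for any of these classes, and the two-sided exact permutation test gave p = 0.1 for each (0.122 after Benjamini-Hochberg adjustment over the 11 classes), the smallest that 3 against 3 samples allow. On the RPM as deposited, not divided by the sum of listed rows, the microRNA groups did overlap. They stood at 674640, 563510 and 562550 RPM in the co-IPs and 699950, 670040 and 669280 RPM in the inputs (exact permutation p = 0.3).

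**Figure D1:**
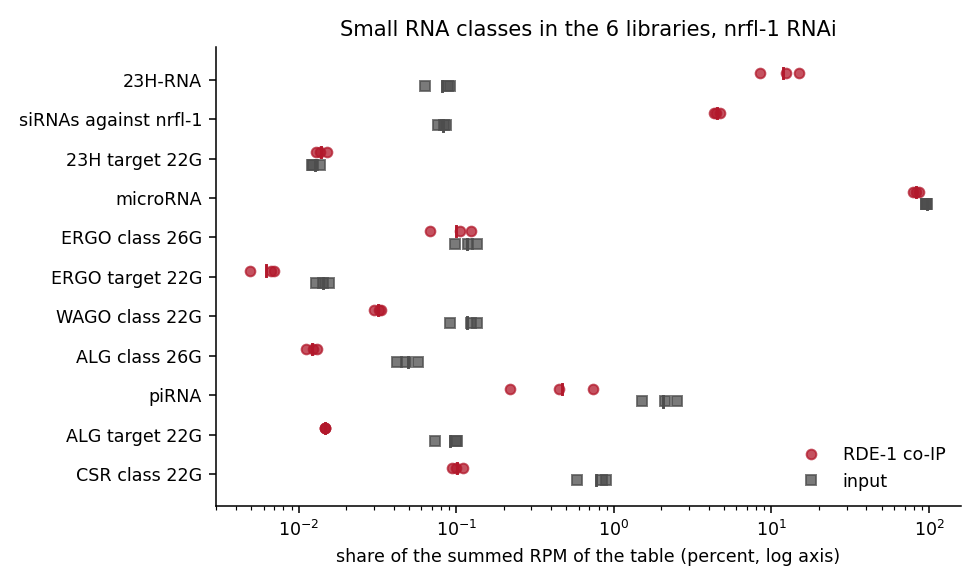
Share of the summed RPM held by each of 11 small RNA classes (percent, log axis) in the 3 RDE-1 co-IPs (circles) and 3 inputs (squares), with vertical ticks at the means. Classes are ordered by the ratio of both means, from the 23H-RNAs, at 147, down to the CSR class 22G-RNAs, whose mean share was 0.101% in the co-IPs but 0.771% in the inputs.

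CSR class 22G-RNAs, piRNAs, WAGO class 22G-RNAs and ALG class 26G-RNAs had lower shares in every co-IP than in any input. The piRNA share was 0.469% ± 0.258 in the co-IPs, where it ran from 0.220% to 0.735%, but 2.05% ± 0.519 in the inputs. The ERGO class 26G-RNAs were the exception among the low classes: they held 0.0991% ± 0.0284 in the co-IPs but 0.118% ± 0.0188 in the inputs, with overlapping groups (exact permutation p = 0.5). The 22G-RNAs of the genes on the authors' list of 23H-RNA targets also overlapped, at 0.0139% ± 0.00108 and 0.0127% ± 0.000859 (exact permutation p = 0.3).

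Feature by feature, limma was fitted on log2(RPM + 1) over the 3197 rows whose mean over the 6 libraries reached 1 RPM, and 2819 passed an adjusted p of 0.05, which is 88.2% of those tested. Of these, 483 were higher in the co-IP (15.1%) and 2336 lower (73.1%). In 2762 rows (86.4%) the 3 co-IPs and the 3 inputs did not overlap. The median log2 fold change over all 3197 rows was −1.39, so a row is best read against that shift. Centring each library on its median added 1.26 to every log2 fold change and left 1564 calls, of which 50.6% were higher in the co-IP, against 17.1% on the RPM as deposited. Scaling each library to the same microRNA total added 0.18 for the siRNAs against nrfl-1 and gave a median of −1.29 over the rows then tested. The filter admits a row that is high in only 1 of the groups, and such a row had to differ. For the 23H-RNAs, 318 of the 370 sequences tested passed through the co-IP alone.

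**Figure D2:**
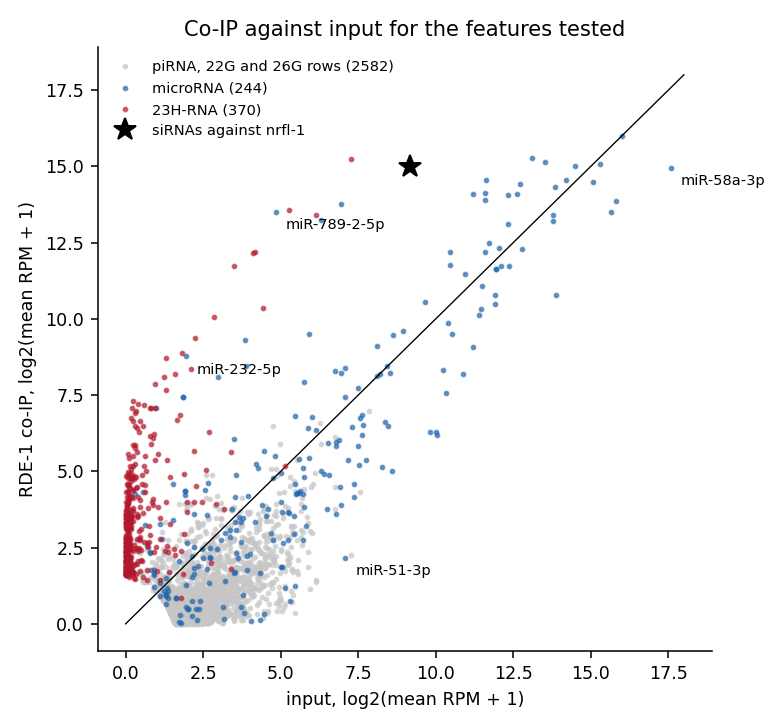
Mean level in the RDE-1 co-IP against mean level in the input, both as log2(mean RPM + 1), for the 3197 rows tested, with the line of equality. The siRNAs against nrfl-1 (star) and the 370 23H-RNA sequences lie above the line almost without exception, the 244 microRNAs spread on both sides, and most piRNA, 22G and 26G rows lie below it.

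The siRNAs against nrfl-1, the gene targeted by the RNAi and one that encodes a scaffold protein of the NHERF family, form a single row. It stood at 34525, 33312 and 29654 RPM in the co-IPs and at 551, 600 and 578 RPM in the inputs. All 3 co-IPs were far above all 3 inputs, with a log2 fold change of 5.81 ± 0.18 (SE, adjusted p = 2.38e-08, limma). The level varied little between libraries of a group.

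Other co-IP experiments of the series were normalized separately and share no library with this one, so their values are only set beside these. From GFP::ALG-1 animals (alg-1(ap423[3xflag::gfp::alg-1]) per the labels, although the columns name an HA tag), also on nrfl-1 RNAi, the same siRNAs stood at 493, 462 and 614 RPM in the 3 co-IPs and 720, 758 and 789 RPM in the 3 inputs, a log2 fold change of −0.54 (adjusted p = 0.0285, limma). Of the 3794 rows tested with ALG-1, 97.5% passed, 2.32% higher and 95.2% lower, and centring those libraries turned the −0.54 to 1.57. A further 2 co-IPs and 2 inputs of GFP::RDE-1 carry no RNAi label, and their labels name pyrophosphohydrolase treatment, an enzyme step that helps 22G-RNAs enter a library. That table also lists siRNAs against nrfl-1, at 40064 and 67322 RPM in the co-IPs and 359 and 385 RPM in the inputs, and 94.2% of its 9046 rows passed, 6.94% higher and 87.2% lower.

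The 23H-RNAs of the co-IP came from few places. The single most abundant sequence held 45.1% of the class RPM, 5 sequences held 82.6%, and 20 of the 1193 listed held 93.4%. F43E2.6 gave 41358, 81862 and 60180 RPM in the co-IPs, against 217 to 289 RPM in the inputs, and 70.5% ± 7.12 of the class. The mir-5592 hairpin gave 14958, 11550 and 10252 RPM, against 122 to 193 RPM. Sequences listed for the Y57G11C.1145 hairpin alone gave 4505, 6464 and 7366 RPM, and those listed for both it and Y57G11C.51 gave 2574, 3563 and 4324 RPM, against 23.5 to 47.9 and 8.53 to 13.1 RPM in the inputs.

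The loci did not keep the same proportions in co-IP and input. F43E2.6 held 46.7% ± 1.46 of the 23H-RNA reads in the inputs and a larger part in each co-IP, while mir-5592 held 28.5% ± 1.58 in the inputs and 15.3% ± 6.55 in the co-IPs. The ratio of mean RPM was 231 for F43E2.6, 158 for the Y57G11C.1145 hairpin and 75.2 for mir-5592. The noncoding RNA rncs-1, a hairpin from chromosome X that inhibits Dicer in the test tube, gave 120 listed sequences that summed to 379, 455 and 382 RPM in the co-IPs and 2.15 to 2.56 RPM in the inputs. Its most abundant one, Tttggccaagcggactggagcaca with its first base in capitals, stood at 56.3, 27.8 and 14.1 RPM in the co-IPs and at most 0.20 RPM in the inputs.

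Of the 1193 listed sequences, on 179 locus names, 80 were at 0 in all 6 libraries. A total of 815 were above 0 in every co-IP and 263 in every input. Among the 370 tested, 361 were higher in the co-IP, 2 lower and 7 not past the threshold, beside the 88.2% of all rows that were called. Where both group means reached 1 RPM, so that the filter did not force the groups apart, 43 of 51 sequences were higher and 1 was lower. Centring left 367 of 370 higher and none lower. With ALG-1, 66 of the listed sequences were tested, of which 31 were higher and 22 lower in the co-IP (median log2 fold change 0.41), and the summed class held 0.116% ± 0.0260 of its co-IPs and 0.118% ± 0.00715 of its inputs.

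The more abundant F43E2.6 strand stood at 25399, 52510 and 37601 RPM in the co-IPs and 125, 168 and 163 RPM in the inputs (log2 fold change 7.93 ± 0.28, adjusted p = 4.73e-08, limma). Its partner stood at 3122, 5673 and 5097 RPM, against 16.9 ± 4.55 RPM in the inputs. Both strands were thus high in every co-IP, and the more abundant one made up 89.1% ± 1.09 of the pair in the co-IPs but 90.1% ± 1.16 in the inputs. The mir-5592 pair was more one-sided. Its more abundant strand stood at 13823, 9908 and 8568 RPM against 59.2, 73.9 and 73.6 RPM, and its partner at 15.5, 61.5 and 44.3 RPM against 0.81, 1.72 and 1.96 RPM, so that the first made up 99.6% ± 0.267 of the pair in the co-IPs but 97.9% ± 0.647 in the inputs.

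Pairs of this kind were common on the list. When each sequence was matched with every other of its own length, 201 pairs had 2-nt 3′ overhangs at both ends, from 54 locus names, while the other geometries from a 5′ overhang of 2 nt to a 3′ overhang of 6 nt gave 49 to 106 pairs each. The 381 sequences in the 2-nt pairs held 86.8% ± 2.43 of the 23H-RNA reads in the co-IPs but 78.9% ± 0.667 in the inputs. Abundant sequences enter several geometries: those paired with a 5′ overhang of 2 nt held 86.9% ± 0.928 of the co-IP reads.

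Length and first base shifted within the class. Sequences of 23 nt held 74.1% ± 0.981 of the 23H-RNA reads in the co-IPs but 56.1% ± 1.23 in the inputs, while those of 21 nt held 2.48% ± 0.185 and 10.5% ± 0.149. Those that begin with T held 78.4% ± 3.02 and 66.4% ± 1.60, and the 74 that begin with G held 0.399% ± 0.0837 and 8.18% ± 1.19. In the inputs, where the class summed to 453 to 639 RPM, 1 start of mir-5592 at a G gave 36.9 RPM on average. Of the 24 sequences from G that were tested, 22 were higher and 1 lower, beside 361 higher of 370 in the class. Their median log2 fold change was 2.33, and that of sequences from T was 2.35. A single abundant sequence weighs heavily on such sums, so the lengths were also read at 1 start of F43E2.6, where 4 listed lengths share the first base, in capitals, and everything after it.
F43E2.6, 21-mer: Tttgccgatgtttctgagatg
F43E2.6, 22-mer: Tttgccgatgtttctgagatgt
F43E2.6, 23-mer: Tttgccgatgtttctgagatgtc
F43E2.6, 24-mer: Tttgccgatgtttctgagatgtct
The 21-mer stood at 690, 1436 and 1110 RPM in the co-IPs and 5.78 to 6.75 RPM in the inputs, and the 22-mer at 8383, 16371 and 11601 RPM against 23.3 to 49.9 RPM. The 24-mer stood at 1323, 1535 and 1090 RPM against 18.2 to 22.7 RPM. All 4 lengths rose, with log2 fold changes of 7.16 ± 0.35, 8.30 ± 0.36, 7.93 ± 0.28 and 5.92 ± 0.30 from the shortest to the longest.

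At mir-5592 levels differed by start position. The main 23-mer and 2 shorter listed sequences that begin 1 and 2 nt further in are shown with their first base in capitals.
mir-5592, main start: Tgtattaaacggtaagggccggc
mir-5592, start 1 nt further in: Gtattaaacggtaagggccggc
mir-5592, start 2 nt further in: Tattaaacggtaagggccggc
Summed over lengths, sequences from the main start gave 13879, 9990 and 8682.5 RPM in the co-IPs and 61.9, 80.4 and 81.5 RPM in the inputs, a ratio of means of 145. Those that begin 1 nt further in gave 34.98, 46.0 and 26.3 RPM against 26.7, 49.7 and 34.3 RPM, and the groups overlapped fully. The 22-mer shown made up most of these reads and had a log2 fold change of 0.03 ± 0.36 (adjusted p = 0.944, limma). The start 2 nt further in gave 325, 412 and 432 RPM in the co-IPs and 14.4 to 24.4 RPM in the inputs. The 21-mer shown rose by 2.24 ± 0.31 on the log2 scale (adjusted p = 6.03e-05, limma), but was a small part of that start, at 48.3 RPM on average. Most co-IP reads of that start were a 23-mer, at 326 RPM on average, which rose by 6.32. The 24-mer rose by 1.70, and the 22-mer did not pass the threshold (0.57, adjusted p = 0.165, limma). Levels thus differed by length as well as by start. Centring adds 1.26 and takes the 22-mer from G past the threshold, at 1.29. Both listed sequences that were lower in the RDE-1 co-IP also belong to mir-5592, and 1 of them, a 23-mer, begins at the G (0.48 to 1.21 RPM against 1.33 to 3.59 RPM). Its log2 fold change of −0.90 turned to 0.36 with centring, and the call was lost without input 2 (−0.66).

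In the RDE-1 libraries without an RNAi label the mir-5592 start at G was higher in the co-IP, at 70.8 ± 6.84 against 11.2 ± 0.537 RPM. The 22-mer from G rose by 2.56 in those libraries (adjusted p = 4.98e-05, limma). In the ALG-1 table the main start of mir-5592 was lower in the co-IP than in the input, at means of 45.2 and 137.5 RPM, and the start at G was at 6.55 ± 1.28 and 69.3 ± 2.18 RPM. At the Y57G11C.1145 hairpin the main start gave 5795, 8382 and 9966 RPM in the RDE-1 co-IPs on nrfl-1 RNAi and 18.9 to 34.4 RPM in their inputs. The start 1 nt further in, again at a G, gave at most 0.58 RPM in any co-IP and 0.16 to 0.39 RPM in the inputs, which is too low to read.

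**Figure D3:**
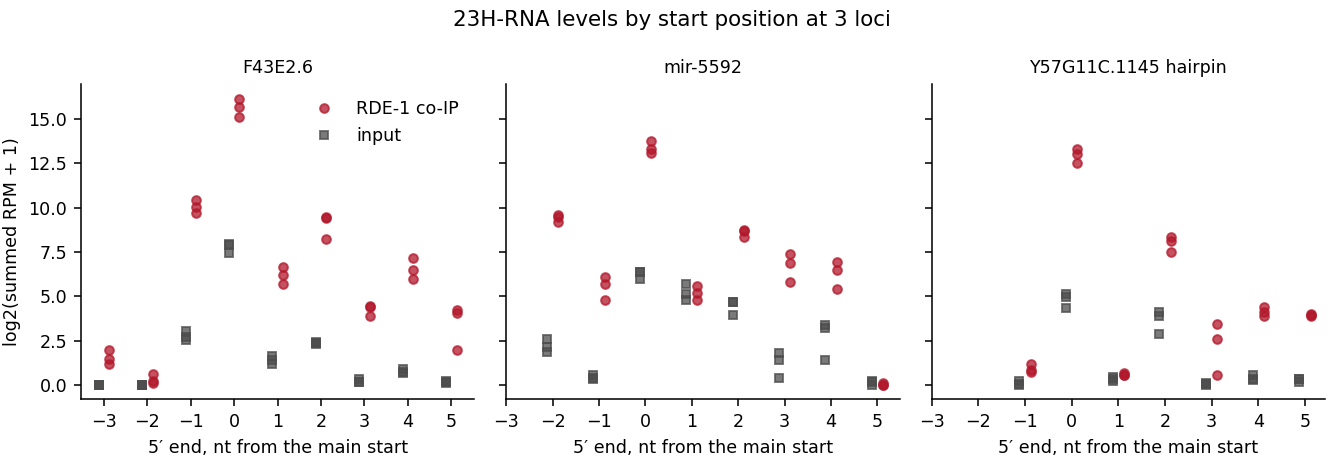
Summed 23H-RNA levels, as log2(summed RPM + 1), by the distance of the 5′ end from that of the locus's most abundant sequence (nt) at F43E2.6, mir-5592 and the Y57G11C.1145 hairpin, for the 3 RDE-1 co-IPs (circles) and 3 inputs (squares). At mir-5592 the co-IPs and inputs overlap at +1, between 26.3 and 49.7 RPM, while at the main start the co-IPs lie between 8682.5 and 13879 RPM and no input exceeds 81.5 RPM.

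MicroRNAs made up most of the reads in both groups, and RDE-1 did not hold them in the proportions of the lysate. Of 244 microRNA rows tested, 68 were higher in the co-IP and 109 lower (median log2 fold change −0.48). Where both group means reached 1 RPM, 50 of 196 rows were higher and 84 lower. Among rows that passed the filter through the co-IP alone 18 of 19 were higher, and through the input alone 25 of 29 were lower. Centring turned the balance over all 244 rows to 126 higher and 42 lower, so the size of a change, not its sign alone, separates the microRNAs below. A group of 16 rows, under 15 names, rose by at least 3 on the log2 scale, as did 5.29% of all rows tested, and these were picked out after their values were seen. Of these, miR-4814-3p, both arms of miR-1832b, miR-5553-3p and miR-5550-3p passed the filter through the co-IP alone. All 15 were also higher with RDE-1 in the libraries without an RNAi label, where 152 of 226 microRNA rows were higher. There 13 of the 16 rows again rose by at least 3, beside a median log2 fold change of 1.08 over microRNA rows. With ALG-1, 11 of the 15 names were tested and 2 were higher, where 53 of 229 microRNA rows were.

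The largest rise was that of miR-789-2-5p, at 15612, 13051 and 6512 RPM in the co-IPs and 19.9, 27.2 and 35.4 RPM in the inputs, a log2 fold change of 8.63 ± 0.37 (adjusted p = 7.73e-08, limma). With ALG-1 it stood at 16.4 to 23.6 RPM in the co-IPs and 22.6 to 24.1 RPM in the inputs, without passing the threshold (−0.22). The 3p arm listed for miR-789 was far scarcer and rose with RDE-1 by 2.45 ± 0.33, from 2.02 to 3.68 RPM in the inputs to 14.6 to 25.6 RPM in the co-IPs. A separate row, miR-789-5p, averaged 66.4 RPM in the co-IPs and 10.3 RPM in the inputs, a rise of 2.63 (adjusted p = 9.35e-05, limma).

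Next came miR-243-3p, a microRNA known to enter RDE-1 and to direct it to the transcript Y47H10A.5. It stood at 13354, 9688 and 6274 RPM in the co-IPs and 66.1, 85.3 and 80.1 RPM in the inputs (6.91 ± 0.31, adjusted p = 7.73e-08, limma), and it also rose with ALG-1, by 1.83. The groups were far apart with RDE-1. The 22G-RNAs of Y47H10A.5 were at 1.00, 1.85 and 1.87 RPM in the co-IPs and 2.95, 3.45 and 3.62 RPM in the inputs. Their log2 fold change of −0.77 (adjusted p = 0.0169, limma) turned to 0.49 with centring, and the call was lost with libraries scaled to the same microRNA total (−0.64) and without co-IP 1 (−0.60), input 2 (−0.75) or input 3 (−0.72).

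The arms of some hairpins parted in the RDE-1 co-IP. The 5p arm of miR-232 stood at 383, 450 and 473 RPM in the co-IPs and 2.61 to 3.27 RPM in the inputs (6.81 ± 0.31), while its 3p arm was at 2.37 to 5.70 RPM and 10.2 to 12.6 RPM (−1.53 ± 0.34). The 5p arm of miR-240 stood at 7978, 18320 and 15876 RPM in the co-IPs and 101, 131 and 131 RPM in the inputs (6.77 ± 0.33), and its 3p arm at 28.4 RPM against 94.1 RPM on average (−1.65 ± 0.35). Both 3p arms fell on the RPM as deposited but not past the threshold after centring (−0.27 and −0.39).

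The less abundant arm of miR-84, a member of the let-7 family, also rose. This 3p arm stood at 211, 786 and 889 RPM in the co-IPs and 10.5 to 15.9 RPM in the inputs (5.22 ± 0.51, adjusted p = 9.06e-06, limma), and was lower with ALG-1 (−0.79, or 1.32 with that table centred). Co-IP 1 was the lowest of the 3 co-IPs by a wide margin, yet lay above every input. The 5p arm of miR-84 did not pass the threshold (−0.42, adjusted p = 0.118), a value that turned to 0.84 with centring. For miR-238 both arms rose, the 5p arm by 5.09 ± 0.38 and the 3p arm, at 14492 to 15966 RPM against 2645 to 3450 RPM, by 2.32 ± 0.18.

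**Figure D4:**
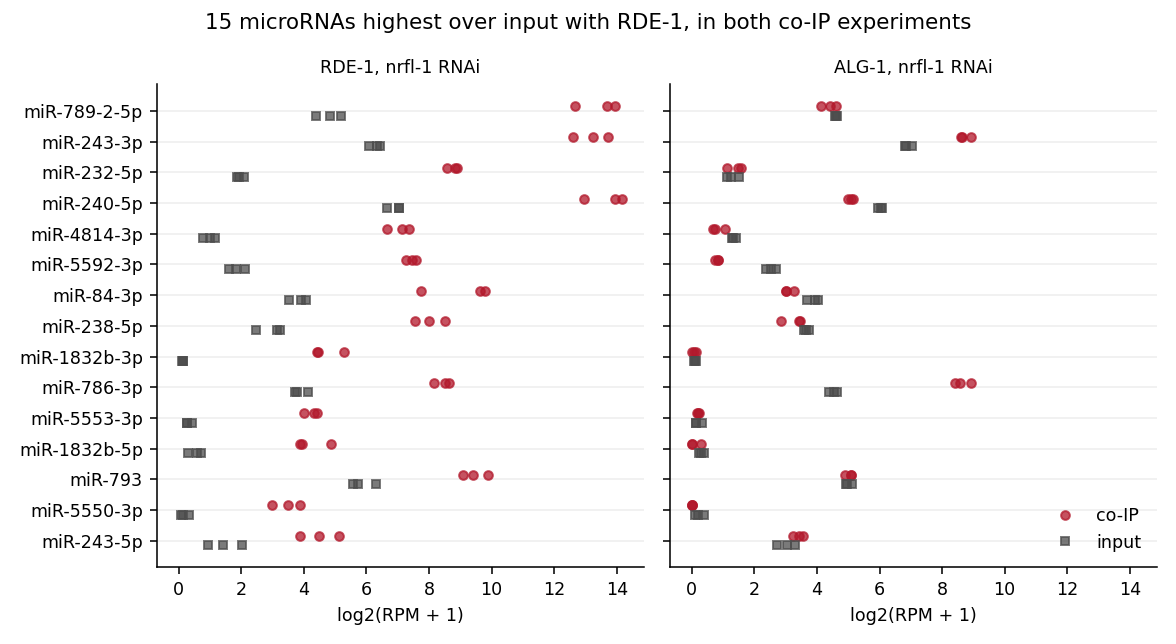
Level, as log2(RPM + 1), of the 15 microRNAs that rose by at least 3 on the log2 scale with RDE-1, in the 3 co-IPs (circles) and 3 inputs (squares) of RDE-1 (left) and of ALG-1 (right), both on nrfl-1 RNAi. The groups are far apart for each with RDE-1, whereas with ALG-1 only miR-786-3p, at 337 to 486 RPM against 19.7 to 23.7 RPM, and miR-243-3p show a clear rise.

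An exception was miR-786-3p, a microRNA needed for the rhythm of defecation in the intestine. It stood at 394, 287 and 361 RPM in the RDE-1 co-IPs and 12.1 to 16.6 RPM in the inputs (4.56 ± 0.32), and rose with ALG-1 too, by 4.12. In the RDE-1 libraries without an RNAi label it averaged 227 RPM in the inputs and rose by only 1.34. The median over microRNA rows there was 1.08. The microRNAs miR-4814-3p (6.08 ± 0.32) and miR-5592-3p (5.58 ± 0.32) rose with RDE-1 and fell with ALG-1, by 0.50 and by 1.73 on the log2 scale. With ALG-1, 95.2% of all rows were lower and the median log2 fold change was −1.96, and centring its libraries turned these ALG-1 values to 1.60 and 0.38. Of the remaining 6 names, from miR-1832b-3p to miR-243-5p (3.02), miR-793 was the most abundant, at 543 to 944 RPM in the co-IPs, and the others reached at most 38.2 RPM.

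Over the 85 hairpins with both arms tested, of 171 listed with both, the more abundant arm in wild-type adults had a median log2 fold change of −0.37 and the other arm −1.27. The main arm was higher in 25 hairpins and lower in 38, and the minor arm higher in 15 and lower in 52. In 30 of the 85 the minor arm had the larger value. The minor arm exceeded the main arm in the co-IPs but not in the inputs at 4 hairpins: miR-232, miR-358, miR-4816 and miR-800.

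**Figure D5:**
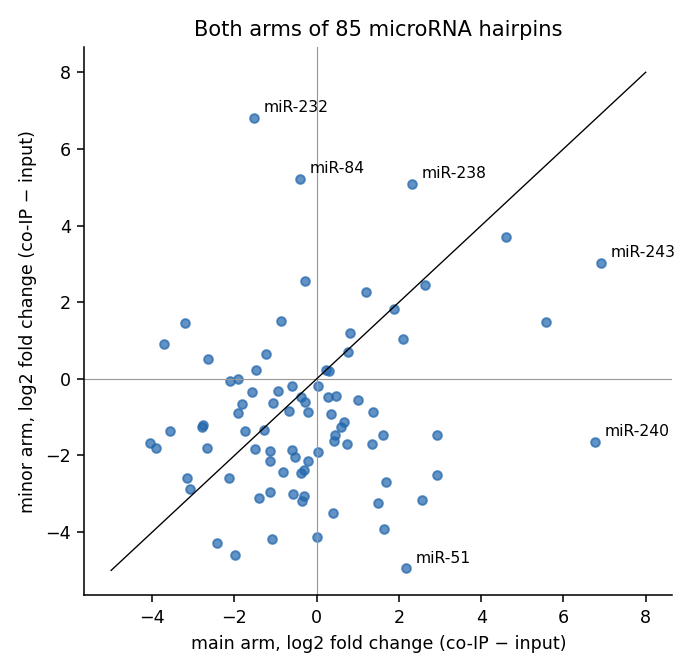
Log2 fold change (co-IP against input) of the minor arm against that of the main arm for the 85 microRNA hairpins with both arms tested, with the line of equality. Points above the line, 30 in number, have the larger value for the minor arm, with miR-232 (6.81 against −1.53) and miR-84 (5.22 against −0.42) farthest above it.

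Members of some microRNA families differed in direction. The counts below cover both arms of each hairpin, of which the minor arm does not carry the family's seed, and stand beside the 15.1% of all rows that were higher and the 73.1% that were lower. In the mir-51 family 3 of 11 rows tested were higher and 8 lower, and of its 6 main arms 3 were higher and 3 lower. Its member miR-51-5p stood at 39381, 40443 and 38402 RPM in the co-IPs and 8368, 9554 and 8340 RPM in the inputs (2.17 ± 0.14), whereas miR-52-5p stood at 1470, 1965 and 1784 RPM against 11582, 17417 and 15886 RPM (−3.09 ± 0.22). In both cases the groups were far apart. The members miR-55-3p and miR-56-3p rose, by 2.55 and 2.93, and miR-53-5p, miR-54-3p and the minor arm miR-51-3p had log2 fold changes of −3.53, −2.68 and −4.95. With ALG-1 each of these 7 rows had the same sign, from 4.78 for miR-55-3p to −4.48 for miR-51-3p.

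The mir-58 family, the worm relatives of bantam, held 95756 to 121670 RPM in the co-IPs and 203810 to 234530 RPM in the inputs, with 3 of 10 rows higher and 4 lower. Of its 6 main arms 3 were higher and 1 lower. Its main member miR-58a-3p stood at 21257, 37294 and 37100 RPM against 176410, 201890 and 206120 RPM (−2.65 ± 0.19), while miR-80-3p rose by 1.61 and miR-81-3p by 2.92. The mir-35 family, which acts in embryos, had 2 of 16 rows higher and 8 lower, and of its 8 main arms 2 were higher and 2 lower. Its most abundant member miR-35-3p stood at 76025, 61569 and 57385 RPM in the co-IPs and 77942, 54134 and 63688 RPM in the inputs. Those groups overlapped and the log2 fold change was −0.00 (adjusted p = 0.999, limma), which centring turned to 1.26. In the same family miR-40-3p rose by 1.49 and miR-37-3p fell by 1.98 on the log2 scale.

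In the let-7 family, which times larval development, 5 of 9 rows were higher and 2 lower. Of its 5 main arms 3 were higher and 0 lower. The founding member let-7-5p stood at 5842, 3798 and 4396 RPM in the co-IPs and 3464, 2896 and 2863 RPM in the inputs (0.59, adjusted p = 0.0265, limma), and the call was lost without co-IP 1 (0.42), input 2 (0.55) or input 3 (0.54). For the timing microRNA lin-4-5p the values were 1013, 1723 and 1750 RPM against 793, 942 and 679 RPM (0.86, adjusted p = 0.0159), a call lost without co-IP 2 (0.74), co-IP 3 (0.73) or input 3 (0.75). The mir-44 family had no row higher and 5 of 7 lower, the mir-64 family 3 of 9 higher and 6 lower, and the mir-72 family 1 of 6 higher and 5 lower. Of main arms alone, mir-44 had 0 of 4 higher and 2 lower, mir-64 had 3 of 5 higher and 2 lower, and mir-72 had 1 of 3 higher and 2 lower. The mir-64 family summed to 42308 to 59804 RPM in the co-IPs and 25741 to 31623 RPM in the inputs.

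Both arms of miR-1 (muscle) and of miR-60 (intestine) were lower in the co-IP. The neuronal microRNAs lsy-6-3p (−0.33) and miR-124-3p (−0.66) did not pass the threshold, so that none of these 6 rows was higher and 4 were lower, beside 73.1% of all rows. Muscle miR-1-3p stood at 15937, 8751 and 10155 RPM in the co-IPs and 76245, 34909 and 44416 RPM in the inputs (−2.13 ± 0.29), which after centring was −0.87 and no longer past the threshold. Intestinal miR-60-3p stood at 49.7, 66.1 and 99.3 RPM against 1317, 909 and 960 RPM (−3.91 ± 0.34). For the levels in these whole-animal lysates, fewer cells that make a microRNA and less of it per cell cannot be told apart.

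The microRNA rows called higher in common were 24 of the 68 with RDE-1 and of 53 with ALG-1 (35.3% and 45.3%), and 61 of the 68 and of 152 in the RDE-1 libraries without an RNAi label (89.7% and 40.1%). Of the 68 rows, 51 were tested with ALG-1, where 53 of 229 microRNA rows were higher, and 65 were tested without an RNAi label, where 152 of 226 were.

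The classes that other Argonautes hold were mostly low. In these libraries 22G-RNAs were scarce in the inputs too, where the CSR class held 0.771% and the WAGO class 0.117%. In the inputs without an RNAi label, whose labels name pyrophosphohydrolase treatment, the same classes held 16.5% and 38.1%. The rows counted here are thus only the 22G-RNAs that these libraries captured. Of 838 CSR class 22G-RNA rows tested none was higher and 835 were lower, and after centring 6 were higher and 208 lower. In the ALG class targets 71 of 72 rows of 22G-RNAs were lower (15 after centring, with 1 higher), and in the WAGO class 83 of 95, with 4 higher (5 lower and 13 higher after centring). Of these rows 730 CSR, 64 ALG target and 63 WAGO rows passed the filter through the input alone, and such a row had to be lower. Where both group means reached 1 RPM, 106 of 108 CSR rows and all 8 ALG target rows were lower. Of 32 such WAGO rows 21 were lower and 4 higher. The deepest fall in the CSR class was that of tfg-1, at 1.20 to 2.52 RPM in the co-IPs and 17.0 to 25.98 RPM in the inputs (−2.96 ± 0.32). The 22G-RNAs of ints-8, which encodes a subunit of the Integrator complex, were the most abundant of the class in the co-IP, at 11.2 ± 3.58 RPM against 14.6 ± 4.85 RPM, with overlapping groups (−0.35, adjusted p = 0.361, limma, and 0.91 with centring).

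Genes of the RNAi machinery were among the CSR class targets. Of 32 such genes listed, 24 had a row of 22G-RNAs and 10 were tested. None was higher and all 10 were lower, with log2 fold changes between −2.23 and −1.19 (median −1.91), beside the 73.1% of all rows that were lower. Only hrde-1 averaged at least 1 RPM in the co-IPs, at 1.03 RPM. The others passed the filter through the input alone, and such a row had to be lower. The lowest were ego-1, an RNA-dependent RNA polymerase of the germline, and mut-16, a scaffold of the Mutator foci where 22G-RNAs are made, both at −2.23. The highest, the helicase gene drh-3 at −1.19, turned to 0.067 with centring. The 22G-RNAs of rde-1 itself were at 0.81, 0.62 and 0.43 RPM in the co-IPs and 0.81, 1.16 and 1.63 RPM in the inputs.

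A few 22G-RNAs went the other way. On the authors' list of 23H-RNA target genes, 19 rows were tested, of which 6 were higher and 7 lower (11 and 0 after centring). The 22G-RNAs of Y57G11C.57 stood at 15.9, 15.5 and 12.8 RPM in the co-IPs and 2.59, 2.96 and 2.94 RPM in the inputs (2.04 ± 0.28), those of Y57G11C.1145 rose by 2.02, and those of Y57G11C.51, at 17.8, 14.6 and 10.3 RPM against 2.39, 3.99 and 3.56 RPM, by 1.81 ± 0.32. In the libraries without an RNAi label all 3 were lower in the co-IP, at −0.91 to −1.57 on the log2 scale. Those libraries, normalized separately and labelled with pyrophosphohydrolase treatment, held far more of these 22G-RNAs in the inputs. Input means there were 76.9 RPM for Y57G11C.1145 and 148 RPM for Y57G11C.51, beside 2.78 and 3.31 RPM on nrfl-1 RNAi. The libraries thus differ in more than the RNAi label, and an effect of RNAi on these rows was not tested. Y57G11C.1145 and Y57G11C.51 also name loci of abundant 23H-RNAs, and a link to these rises was not tested. The 22G-RNAs of rncs-1 were at 1.58, 0.81 and 0.62 RPM in the co-IPs and at most 0.07 RPM in the inputs, too low in the inputs for the 2 groups to be compared by a fold.

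Among 46 ERGO class 26G-RNA rows 4 were higher and 10 lower, and without input 2 the count lower was 6. Centring gave 37 higher and none lower. The strongest was T16A1.9, at 71.0, 101 and 94.4 RPM in the co-IPs and 18.3, 32.5 and 27.9 RPM in the inputs (1.74 ± 0.35, adjusted p = 0.000688, limma). The most abundant, Y17D7C.3, was at 94.8, 130 and 154 RPM against 233, 239 and 214 RPM (−0.88, adjusted p = 0.0211), which turned to 0.38 with centring, and the call was lost with libraries scaled to the same microRNA total (−0.69) and without co-IP 2 (−0.91) or input 2 (−0.84). T05E12.10 overlapped between the groups (0.30). Of 22 ALG class 26G-RNA rows 20 were lower (1 after centring, with 2 higher), and 1 was higher: Y57G11C.36, at 7.88, 21.7 and 22.7 RPM against 4.69, 7.73 and 7.46 RPM (1.17, adjusted p = 0.0213), a call lost without co-IP 2 (0.95), co-IP 3 (0.92) or input 1 (0.97). It was the only row of this class with both group means at 1 RPM or more. The other 21 passed the filter through the input alone, and such a row had to be lower.

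Of 1471 piRNAs tested, 1187 were lower and 37 higher (501 and 219 after centring). The piRNA 21ur-5934 fell furthest, from 39.3 to 46.1 RPM in the inputs to 0.24 to 0.33 RPM in the co-IPs (−5.10 ± 0.27). Of the piRNAs that averaged 10 RPM or more in a group, 21ur-4459 rose most, and stood at 27.4, 22.9 and 34.96 RPM in the co-IPs and 3.31, 6.71 and 4.93 RPM in the inputs (2.32 ± 0.34). Most piRNAs entered the test through the input alone, 870 of the 1471, and among the 576 with a mean of at least 1 RPM on both sides 24 were higher and 356 lower.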

How the data were processed

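Small RNA libraries from 3 GFP::RDE-1 co-IPs and 3 inputs on nrfl-1 RNAi were read from a table of RPM values as the authors deposited them. Per the series' design text the authors used the tinyRNA pipeline and custom Python scripts, and the genome build and the denominator of RPM are not given in the sources used here. The table of ALG-1 on nrfl-1 RNAi and that of RDE-1 without an RNAi label were normalized separately and were not tested against this one. Values were tested as log2(RPM + 1) with limma 3.58.1 in R 4.3.3 (trended eBayes, Benjamini-Hochberg over all rows tested, threshold 0.05) on rows with a mean of at least 1 RPM over the libraries of their table. Class shares were compared by two-sided exact permutation tests. Count tests were not run, since only 82.1% to 86.4% of low values lay on whole-read steps, and depth is given only as the value of 1 read. All 6 column names carry a replicate number, but those of 2 inputs also fit the title of another sample and were assigned to their group only. A total of 464 rows of target 22G-RNAs repeat CSR or WAGO rows, 13 microRNA rows repeat a name, and no column went unused. Named rows came from a list (nrfl-1, rde-1, miR-243, miR-789, let-7, lin-4, miR-35, rncs-1 and Y47H10A.5 among them) and, per class, from the 3 highest in the co-IP and the 3 largest non-overlapping rises and falls where either group averaged 10 RPM or more. Other rows named, those of microRNA families, arms, start positions and lengths among them, were chosen after their values were seen. Members and lists were chosen with earlier results of these data known. The fit was tested on simulated data.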

Additional observations from a re-analysis of the deposited data

Results flagged for a closer look

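On nrfl-1 RNAi, 14 of 75 named rows tested with RDE-1 moved in opposite directions with RDE-1 and with ALG-1. In these 14 every co-IP lay above every input for RDE-1 and below for ALG-1, each past the limma threshold. The difference between the Argonautes was not tested, because their tables were normalized separately. With ALG-1, 95.2% of all rows were lower and the median log2 fold change was −1.96, so a fall there is common. Many of the named rows were picked for their values with RDE-1. How many of all rows tested in both experiments moved this way was not counted. Centring the ALG-1 libraries moved that median to 0.15 and turned the ALG-1 values given here above 0, from 0.038 for T16A1.9 to 1.60 for miR-4814-3p, except that of miR-789-3p (−0.23, no longer past the threshold). For the siRNAs against nrfl-1 the log2 fold change was 5.81 with RDE-1 and −0.54 with ALG-1. Among the 23H-RNAs it was 8.30 and −1.60 for the F43E2.6 22-mer and 7.16 and −1.22 for the 21-mer of the same start. The main mir-5592 23-mer had 7.24 and −1.46, its partner strand 3.88 and −1.69, and the 23-mer of the Y57G11C.1145 hairpin 8.05 and −0.85. The F43E2.6 23-mer is not among them, since it was higher with ALG-1 too (0.59). Among microRNAs the values were 2.45 and −2.34 for miR-789-3p, 6.77 and −0.95 for miR-240-5p, and 5.22 and −0.79 for miR-84-3p. They were 6.08 and −0.50 for miR-4814-3p and 5.58 and −1.73 for miR-5592-3p. The 26G-RNAs of T16A1.9 had 1.74 and −2.07, those of Y57G11C.36 had 1.17 and −1.68, and the 22G-RNAs of Y57G11C.51 had 1.81 and −1.40.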

How the results depend on the processing

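The 2819 calls between RDE-1 co-IP and input became 7647 with no filter on low values, 399 with a filter at 10 RPM and 1564 with centring, and ranged from 2300 to 3097 when each library in turn was left out. For ALG-1, 3701 calls became 11628 with no filter and 2455 with centring (3075 to 4133 with a library left out). For RDE-1 without an RNAi label, 8520 became 3210 with centring (7883 to 8684). The numbers of co-IPs and inputs were not taken as pairs, since deviations from the group means correlated at 0.267, 0.0933 and 0.0546 for RDE-1 numbers 1, 2 and 3 and at −0.253 to −0.0334 for ALG-1. With the replicate block there were 2906 calls for RDE-1, 3692 for ALG-1 and 8773 for RDE-1 without an RNAi label, the siRNAs against nrfl-1 stood at 5.81, and of the named rows miR-48-5p gained a call (0.34). The log2 fold change of the siRNAs against nrfl-1 ranged from 5.77 to 5.88 with a library left out. Over the same settings the difference in class share, in percentage points, ranged from 10.3 to 13.6 for 23H-RNAs, 4.30 to 4.49 for siRNAs against nrfl-1, −15.7 to −12.2 for microRNAs, −1.86 to −1.34 for piRNAs, −0.763 to −0.610 for CSR class 22G-RNAs and −0.0309 to −0.00312 for ERGO class 26G-RNAs. As a share of rows that are not microRNAs, 23H-RNAs held 68.8% of the co-IPs and 2.40% of the inputs. Leaving out the repeated rows, an alternative chosen after seeing the data, left the 23H-RNA difference at 11.9 percentage points. Of 75 named rows tested, 59 kept direction and call under every alternative run and 68 under all but centring, which reversed miR-84-5p (0.84), miR-35-3p (1.26), the 22G-RNAs of ints-8 (0.91), drh-3 (0.067) and Y47H10A.5 (0.49), the 26G-RNAs of Y17D7C.3 (0.38) and the mir-5592 23-mer at G (0.36). Rows near 1 RPM rest on few reads.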
